A study of Mustela putorius furo and Mus musculus with 4 samples.

Results

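The imprinted genes Peg3, Mest, Plagl1, Dlk1, Grb10, Ndn, Magel2, Sgce, Impact and Nnat were examined in cultured astrocytes of the ferret and the mouse. They were chosen as a named set of 10 genes and looked up by symbol, without regard to case, among the values of each species. The species shared 13373 symbols. Of the 10 genes, 9 had a value in both species, and Nnat had values in the mouse alone. None of the symbols had more than 1 value in a species. RNA was sequenced in 2 libraries of ferret astrocytes (Mustela putorius furo, normally pigmented sable animals, cortex of P1 pups) and 2 libraries of mouse astrocytes (wild-type ICR strain, cortex of P1 to P3 pups). All cells had been grown as mixed glia in serum, shaken, replated and then kept without serum, with heparin-binding EGF-like growth factor, before harvest. Mouse pups were pooled in a flask, whereas cells of a single ferret pup were spread over several flasks, and nothing says that the duplicates of a species were separate cultures. Each value is an FPKM, a fragment count scaled to exon length and library size, which the authors computed on the gene models of each species. FPKM allows levels to be compared between genes, but a gene model of another length or completeness also moves the value, and species, gene models and culture cannot be told apart in this design.

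In genomic imprinting, a gene is expressed mainly from the allele of a single parent, because the other allele is silenced by marks that are set in the germ line. All of these genes except Grb10 are known to be active on the paternal allele in the mouse, and Grb10 is active on the maternal allele in most tissues and on the paternal allele in neurons. Many imprinted genes control the growth of the embryo or placenta, and several are abundant in neural progenitors and glia. FPKM does not separate the alleles, so whether these genes are imprinted in ferret astrocytes was not tested.

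The cultures expressed astrocyte markers in both species, with Gfap among the highest genes of the marker list. All 11 astrocyte markers had a value in both species, and Slc1a2 alone was under 1 FPKM in ferret astrocytes. Of the 11, 1 was called higher in the ferret and 7 lower. The summed FPKM of the 10 meningeal fibroblast markers was 112 to 127 in the ferret libraries and 1635 to 1651 in the mouse libraries, and all 10 were called lower in ferret astrocytes. The 9 microglial markers with a value in both species summed to 5.08 to 6.25 in ferret and 270 to 284 in mouse libraries, and Cx3cr1 was listed at 0 in both ferret libraries. For 9 oligodendrocyte lineage markers the sums were 169 to 188 and 69.0 to 69.0 FPKM, and for 8 neuronal markers 33.3 to 34.2 and 33.1 to 34.5. The list of 10 oligodendrocyte lineage markers also held Olig1, with 107 and 117 FPKM in the mouse and no ferret value. Its sum leaves Olig1 out, so the larger ferret sum holds for these 9 markers alone. Map2 made up most of the neuronal sum in both species, with means of 18.9 FPKM in the ferret and 30.8 in the mouse. Of 5 neuronal markers tested, Nefl, Dcx and Syt1 were called higher in the ferret and 0 lower. The list of 11 also held Stmn2, with 124 and 127 FPKM in the mouse, and Nefm, with a mouse mean of 0.872. Neither had a ferret value, Tubb3 had none in either species, and the sums leave them out. The 7 endothelial and mural markers summed to 15.9 to 16.6 in ferret and 46.8 to 48.0 in mouse libraries, and the 4 ependymal and choroid plexus markers to 22.9 to 24.1 and 42.6 to 44.9. Of 3 endothelial and mural markers tested, Cdh5 and Pdgfrb were called lower in the ferret, and Kcnj8 was called higher, with means of 11.5 and 0.019 FPKM. Among all genes tested by the rule given below, 13.1% were called higher in the ferret and 30.1% lower. That rule tests genes that average at least 1 FPKM in a species. Nefl, Dcx and Kcnj8 reached this level in the ferret alone. Cdh5, Slc1a2, 5 of the 10 fibroblast markers and 8 of the 9 microglial markers reached it in the mouse alone. This filter favoured a difference for all of these genes. In these whole-culture libraries, fewer cells of a type and less RNA per cell cannot be told apart.

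The imprinted genes split into a group that was higher and a group that was lower in ferret astrocytes. Mest, Peg3, Sgce and Magel2 were higher, and Grb10, Plagl1, Dlk1 and Impact were lower. Ndn had a higher FPKM in the ferret as well, by a difference under the limit for a call. A gene was called when limma, fitted on log2(FPKM + 1) across the 10204 genes that averaged at least 1 FPKM in a species, gave a p under 0.05 after adjustment over all these genes (Benjamini-Hochberg) and the log2 difference exceeded 1 in size. Differences are ferret minus mouse, with their standard error (SE). By this rule 4 of the 9 genes were higher, against 13.1% of all tested genes, and 4 were lower, against 30.1%. In either direction 8 of 9 were called, against 43.2% of all tested genes. An adjusted p under 0.05 was common by itself: 9040 of the 10204 tested genes had it in the limma fit. The median absolute log2 difference was 1.60 over the 9 genes and 0.85 over all tested genes. Dlk1 passed the filter on low values through the mouse alone and Magel2 through the ferret alone, so the filter favoured a difference for these 2 genes, whereas the other 7 had a mean above 1 FPKM in both species. The spread between duplicates was small beside these differences: the largest absolute log2 difference between duplicates was 0.14 among these genes in the ferret and 0.11 in the mouse.

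**Figure D1:**
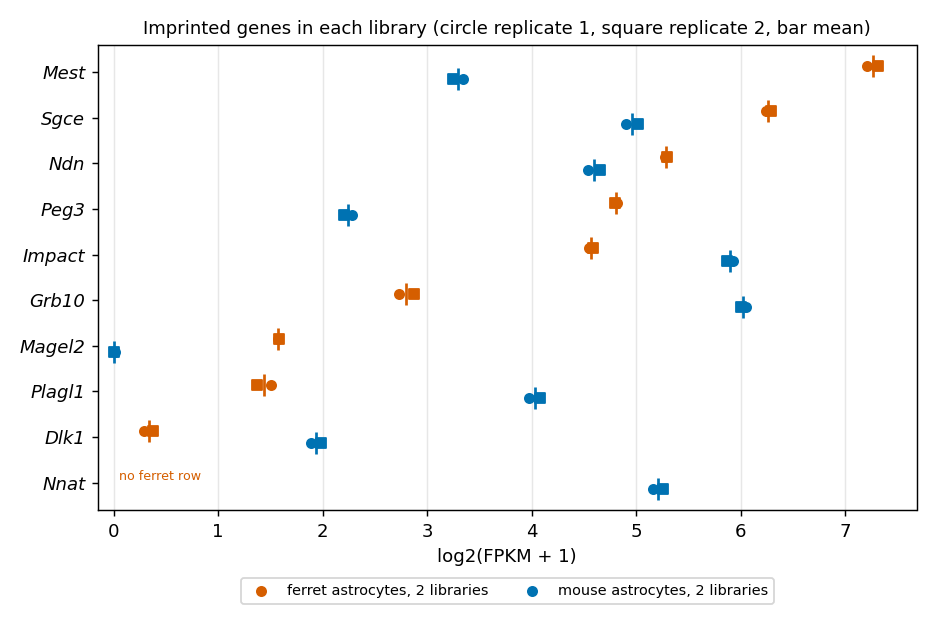
Expression of the 10 imprinted genes in each library, as log2(FPKM + 1) on the horizontal axis, with ferret astrocytes in orange and mouse astrocytes in blue. Circles are replicate 1, squares replicate 2 and vertical bars the means of 2 libraries. The duplicates lie close together, the 2 species do not overlap for any of the 9 genes with both values, and Nnat has mouse values alone. The share of all tested genes without such overlap was not counted.

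The order of the genes changed between the species. In ferret astrocytes Mest stood highest, followed by Sgce, Ndn, Peg3, Impact, Grb10, Magel2, Plagl1 and Dlk1. In mouse astrocytes the order was Grb10, Impact, Nnat, Sgce, Ndn, Plagl1, Mest, Peg3, Dlk1 and Magel2. In the ferret, Magel2 and Plagl1 were closer together (0.125 FPKM) than the duplicates of Plagl1 (0.256 FPKM), and the other neighbours in both orders were farther apart than their duplicates. Of the FPKM summed over the 9 genes, Mest alone held 46.1% and 47.5% in ferret astrocytes, beside 4.42% and 4.10% in mouse astrocytes. Grb10 held 1.77% and 1.89% in the ferret and 31.6% and 30.5% in the mouse. Across the 9 genes, the Spearman rank correlation of the mean FPKM of the 2 species was 0.30, and across all 10204 tested genes it was 0.68. These are descriptions across genes, which share their libraries and are not independent replicates.

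Ratios of FPKM between genes of the same library do not change when the whole library is multiplied by a single factor. Quantile normalization can change them, and they still depend on the gene models of each species. Mest stood at 26.1 and 25.1 times the level of Grb10 in ferret astrocytes, and at 0.14 and 0.134 times its level in mouse astrocytes. Peg3 was 14.8 and 16.9 times as high as Plagl1 in the ferret, and 0.261 and 0.227 times as high in the mouse. Sgce was 3.35 and 3.35 times as high as Impact in the ferret, and 0.486 and 0.547 times as high in the mouse. Each of these 3 pairs sets a gene called higher over a gene called lower and was chosen with the calls known, so the ratios are descriptions of size.

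Mest encodes an alpha/beta-hydrolase fold protein of the endoplasmic reticulum and is a mesodermal growth gene of the mouse embryo. It had 147 and 158 FPKM in ferret astrocytes and 9.13 and 8.48 in mouse astrocytes. Both ferret values were far above both mouse values, and in the ferret the gene exceeded 98.6% of the shared genes, against 56.0% in the mouse. The means were 153 ± 7.92 and 8.80 ± 0.463 FPKM (SD, n = 2), a ratio of 17.3. The log2 difference was 3.97 (SE 0.066, limma adjusted p = 3.32e-11), the largest absolute difference of the 9 genes at a pseudocount of 1. Mouse Mest lies on chromosome 6 (GRCm38, plus strand, 30723547 to 30748465) and overlaps Copg2, which runs from 30747554 to 30896794 on the minus strand. Copg2, a coatomer subunit gene, had 14.3 and 15.5 FPKM in ferret astrocytes and 20.1 and 21.5 in mouse astrocytes. Its log2 difference of -0.46 was not called (limma adjusted p = 1.45e-04), and after rescaling to the mean library sum it was -0.09 (adjusted p = 0.177). Mest was thus 10.3 and 10.2 times as high as its neighbour in the ferret, and 0.454 and 0.394 times as high in the mouse. The library kit marked strand, but whether the quantification used it is not stated, so reads from the overlap cannot be assigned with certainty.

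Nnat encodes neuronatin, a small membrane proteolipid of the endoplasmic reticulum that is abundant in developing brain. It had 34.7 and 37.3 FPKM in the mouse libraries (mean 36.0 ± 1.79, SD, n = 2), the third highest of the 10 genes. No ferret value of this name was among those used here, although RefSeq's annotation of another ferret assembly names the gene, so no comparison was made. Mouse Nnat lies on chromosome 2 (plus strand, 157560078 to 157562522), inside Blcap, which runs from 157556362 to 157571274 on the minus strand. Blcap had 27.8 and 29.8 FPKM in the mouse and likewise no ferret value. Atp2a2 is the calcium pump of the endoplasmic reticulum that neuronatin is known to act on. It had 91.4 and 96.5 FPKM in ferret astrocytes and 94.7 and 98.8 in mouse astrocytes (log2 difference -0.04, SE 0.059, limma adjusted p = 0.515). Its difference was 0.35 after rescaling to the mean library sum (limma adjusted p = 1.21e-04) and 0.30 after quantile normalization (1.63e-04), not called in either.

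Peg3 and Plagl1, which encode zinc finger proteins, differed in opposite directions. Peg3 is a large zinc finger protein known for its effects on growth and maternal behaviour, and Plagl1 is a transcription factor that arrests cell growth and regulates other imprinted genes. Peg3 had 27.2 and 26.9 FPKM in ferret astrocytes and 3.86 and 3.62 in mouse astrocytes. Its mean was 7.24 times as high in the ferret, with a log2 difference of 2.57 (SE 0.068, limma adjusted p = 4.14e-10). Plagl1 had 1.84 and 1.59 FPKM in ferret astrocytes and 14.7 and 15.9 in mouse astrocytes. Its mean was 8.93 times as high in the mouse, with a log2 difference of -2.59 (SE 0.081, limma adjusted p = 1.21e-09). Neither gene's libraries overlapped between the species. Peg3 exceeded 86.2% of the shared genes in ferret and 40.2% in mouse astrocytes. Plagl1 exceeded 35.9% and 69.3%. Mouse Peg3 lies on chromosome 7 (minus strand, 6703892 to 6730431), 146 bp from Usp29 on the other strand, and Plagl1 on chromosome 10 (plus strand, 13060504 to 13131694). In the mouse Usp29 had a mean of 0.012 FPKM and Zim1 of 0.364, and neither had a ferret value. Plagl2, a relative of Plagl1, was not called at 2.39 FPKM in the ferret and 3.29 in the mouse.

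Grb10 encodes an adaptor that binds the insulin and IGF1 receptors and restrains their signals. It had 5.64 and 6.32 FPKM in ferret astrocytes and 65.2 and 63.1 in mouse astrocytes, and the species did not overlap. The mean was 10.7 times as high in the mouse. The log2 difference was -3.22 (SE 0.069, limma adjusted p = 1.21e-10), the largest among the lower genes. Grb10 was the highest of the 10 genes in the mouse, above 93.2% of the shared genes, and stood above 54.7% in the ferret. Mouse Grb10 lies on chromosome 11 (minus strand, 11930508 to 12038683). Its neighbours in the imprinted domain were low in both species: Cobl, an actin nucleator gene, had 0.998 FPKM in the ferret and 2.16 in the mouse (log2 difference -0.66, not called, and -1.04, called, with a pseudocount of 0.1), and Ddc had 0.061 and 0.219.

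Of 6 tested partners and relatives of Grb10, 1 was called higher and 3 lower, beside 13.1% higher and 30.1% lower among all tested genes. Igf1r, the receptor of insulin-like growth factors, had 34.2 and 36.1 FPKM in ferret astrocytes and 8.39 and 7.63 in mouse astrocytes (log2 difference 2.01, limma adjusted p = 2.35e-09). Insr, the insulin receptor, was lower, with a mean of 1.46 FPKM in the ferret and 7.81 in the mouse (log2 difference -1.84, adjusted p = 6.04e-09). The ratio of Igf1r to Insr was therefore 23.6 and 24.6 in ferret astrocytes, beside 1.06 and 0.985 in mouse astrocytes. Grb14, a relative of Grb10 with a similar role, had 0.321 and 0.188 FPKM in ferret astrocytes and 17.8 and 17.1 in mouse astrocytes (log2 difference -3.88, limma adjusted p = 1.14e-10). Grb14 passed the filter through the mouse alone. Nedd4, a ubiquitin ligase that binds Grb10, had 15.1 and 14.9 FPKM in ferret astrocytes and 299 and 300.2 in mouse astrocytes (log2 difference -4.23, limma adjusted p = 9.02e-12). Gigyf1 and Gigyf2, whose proteins were named for binding Grb10, were not called, with log2 differences of -0.29 and -0.04, and Grb7 was under 1 FPKM in both species.

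Dlk1 encodes a transmembrane protein of the Delta family that keeps progenitors such as preadipocytes undifferentiated. It was the lowest of the 9 genes in the ferret, with 0.223 and 0.299 FPKM, and had 2.69 and 2.95 in the mouse. The mean was 10.8 times as high in the mouse, and the log2 difference was -1.60 (SE 0.081, limma adjusted p = 3.33e-08). At values this low the size depended on the pseudocount, and with a pseudocount of 0.1 the log2 difference was -3.02. Dlk2, its close relative, was called lower as well, with 1.43 and 1.56 FPKM in ferret astrocytes and a mean of 6.19 in mouse astrocytes (log2 difference -1.53). Notch1 and Notch2, receptors of this signalling pathway, were not called, with log2 differences of 0.06 and 0.27. Mouse Dlk1 lies on chromosome 12 (plus strand, 109452823 to 109463336), 77.7 kb from Meg3, a noncoding RNA of the maternal allele. Meg3 had 123 and 102 FPKM in the mouse and Rian, another noncoding RNA of the domain, 63.9 and 59.0, so both were far above Dlk1 itself. Mirg had a mean of 2.02, Dio3 of 0.679 and Rtl1 of 0.053 FPKM in the mouse, and none of the 5 genes of this domain had a ferret value.

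Ndn and Magel2 are MAGE-family genes that lie 26.7 kb apart on mouse chromosome 7, in the domain that is affected in Prader-Willi syndrome. Ndn runs from 62346569 to 62350262 and Magel2 from 62377010 to 62381640, both on the plus strand and each with a single exon. Ndn encodes necdin, a growth suppressor of neurons. It had 37.9 and 38.3 FPKM in ferret astrocytes and 22.3 and 24.1 in mouse astrocytes, with no overlap between the species. Its log2 difference of 0.69 (SE 0.063, limma adjusted p = 2.87e-06) passed the test but not the limit of 1. Magel2, which promotes ubiquitination in endosomal sorting, had 1.97 and 1.99 FPKM in the ferret. In the mouse it had 0.0066 FPKM in replicate 1 and was listed at 0 in replicate 2. Its log2 difference was 1.57 (SE 0.075, limma adjusted p = 2.22e-08), and 4.33 with a pseudocount of 0.1. Ndn was 19.2 and 19.3 times as high as Magel2 in the ferret libraries, while in the mouse Ndn was expressed and Magel2 was at or near 0.

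Elsewhere in this domain, Snrpn, a splicing factor gene of the paternal allele, had a mean of 25.6 FPKM in the mouse and Snurf, which shares its transcript, 34.2, with no ferret values. Reads of these overlapping genes cannot be assigned with certainty. Mkrn3 was under 1 FPKM in both species, at 0.708 (ferret) and 0.469 (mouse), and Peg12 had 0.961 in the mouse alone. Ube3a, a ubiquitin ligase gene whose paternal allele is silent in neurons, had 21.2 and 19.5 FPKM in ferret astrocytes and 20.3 and 19.4 in mouse astrocytes. Its log2 difference was 0.04 (limma adjusted p = 0.613), and 0.41 (adjusted p = 0.00136) after rescaling to the mean library sum. Atp10a, a phospholipid flippase gene, was called lower, with 1.49 FPKM in the ferret and 5.17 in the mouse (log2 difference -1.31). It was no longer called after quantile normalization, at -0.90.

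Among the genes related to Ndn and Magel2 or bound by them, Mageh1, another MAGE gene, was called lower, with 3.65 and 3.87 FPKM in ferret astrocytes and 28.8 and 30.4 in mouse astrocytes (log2 difference -2.68, limma adjusted p = 3.54e-10). Maged1 and Maged2 were abundant in both species and not called, at 83.2 and 77.7 FPKM in ferret astrocytes and 122 and 55.5 in mouse astrocytes. Trim27, the ubiquitin ligase that Magel2 activates, averaged 31.7 FPKM in the ferret, beside 15.3 in the mouse, and was called higher just past the limit, with a log2 difference of 1.01. It fell under the limit without ferret replicate 2 or without mouse replicate 1, with a lowest value of 0.94. Usp7 and Vps35, partners of the same complex on endosomes, had log2 differences of 0.36 and 0.60 and were not called.

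Sgce encodes epsilon-sarcoglycan, a membrane protein of the dystrophin complex whose loss causes myoclonus-dystonia. It had 74.8 and 77.0 FPKM in ferret astrocytes and 29.0 and 31.4 in mouse astrocytes, with no overlap between species. The mean was 2.51 times as high in the ferret, and the log2 difference was 1.30 (SE 0.062, limma adjusted p = 2.19e-08). It exceeded 96.1% of the shared genes in the ferret and 83.4% in the mouse. Mouse Sgce lies on chromosome 6 (minus strand, 4674350 to 4747207), 98 bp from Peg10, which starts on the other strand. Peg10, a retrotransposon-derived gene, had 3.14 and 3.23 FPKM in the mouse, where Sgce was 9.23 and 9.71 times as high, and no ferret value. Casd1 and Ppp1r9a of the same domain were not called, at 4.87 and 4.88 FPKM in ferret astrocytes and 7.94 and 6.30 in mouse astrocytes. Asb4 and Calcr were under 1 FPKM in both species.

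Other genes of the sarcoglycan and dystroglycan complex were examined beside Sgce. Sgcb, at 38.6 and 30.0 FPKM, and Sgcd, at 5.11 and 3.27, had log2 differences of 0.35 and 0.52 and were not called. Sgca was under 1 FPKM in both species, and Sgcz was listed at 0 in both ferret libraries and had 0.012 in the mouse. Dag1, which encodes dystroglycan, and Sspn, which encodes sarcospan, were called lower, with log2 differences of -1.34 and -1.29. Under both other scalings these 2 genes fell short of the limit, with values of -0.95 each after rescaling and -0.99 and -0.88 after quantile normalization.

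Impact encodes an inhibitor of the kinase GCN2, which it keeps from its activator GCN1, and is imprinted in the mouse but not in humans. It had 22.3 and 23.0 FPKM in ferret astrocytes and 59.7 and 57.3 in mouse astrocytes, and the species did not overlap. The mean was 2.58 times as high in the mouse, with a log2 difference of -1.33 (SE 0.059, limma adjusted p = 1.29e-08). Gcn1 itself had 10.0 FPKM in the ferret and 9.38 in the mouse (log2 difference 0.09, limma adjusted p = 0.274). Its difference was 0.44 after rescaling to the mean library sum (limma adjusted p = 3.61e-04) and 0.51 after quantile normalization (1.95e-04), not called in either. Eif2ak4, which encodes GCN2, had 2.71 and 4.87, and Eif2s1, which encodes the translation factor that GCN2 phosphorylates, had 83.6 and 43.2. Their log2 differences of -0.66 and 0.94 were not called, and Eif2s1 exceeded the limit after rescaling, at 1.32. Atf4 had 65.5 FPKM in the mouse and no ferret value.

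The scaling between species moved all 9 differences toward the ferret. Over the shared genes, FPKM summed to 227391 and 236543 in ferret astrocytes, beside 300465 and 308121 in mouse astrocytes, and over all tested genes the log2 differences had a median of -0.35. After rescaling every library to the mean of the 4 sums it was 0.00, and after quantile normalization 0.05. Of the calls among all tested genes, 30.3% were higher in the ferret with FPKM as deposited, 47.0% after rescaling and 50.0% after quantile normalization. Among the 9 imprinted genes, no direction changed. Ndn became called, at 1.07 in both cases. Impact fell short of the limit, at -0.95 after rescaling and -0.96 after quantile normalization. This made 5 genes higher and 3 lower. The other 7 genes kept their call under both scalings. Among all tested genes, 19.3% were called higher and 21.7% lower after rescaling, and 20.4% and 20.4% after quantile normalization.

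**Figure D2:**
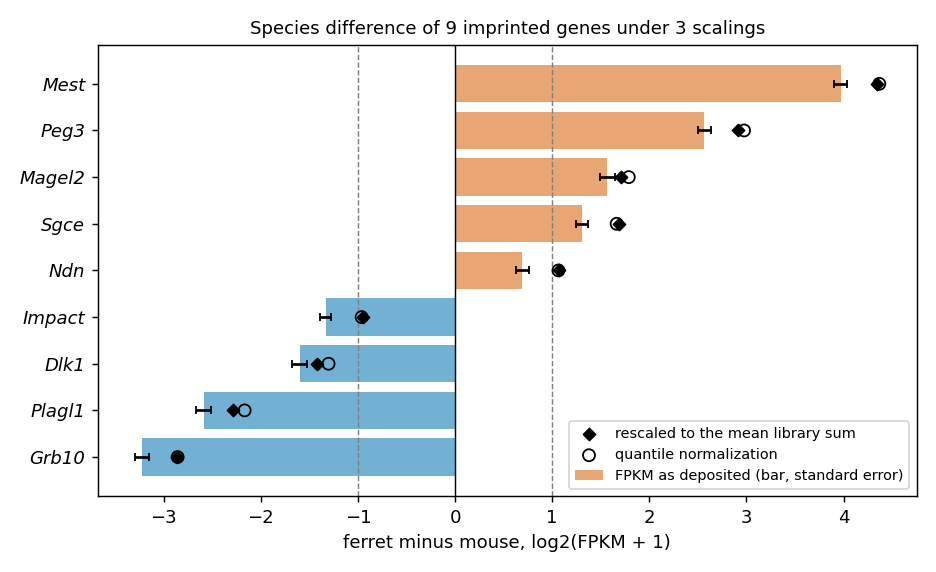
Log2 difference between ferret and mouse astrocytes for the 9 imprinted genes with values in both species, on the log2(FPKM + 1) scale. Bars are the values from FPKM as deposited with their standard errors, orange where the ferret value was higher and blue where it was lower, filled diamonds the values after rescaling to the mean library sum, open circles those after quantile normalization, and dashed lines the limit of 1 in each direction. The symbols lie to the right of the bar ends, and they cross the limit for Ndn and Impact.

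A list of 45 other imprinted genes of the mouse was examined in the same fit. Values in both species were found for 25 of them, and 15 were tested, since 10 were under 1 FPKM in both. Of the 15, 3 were called higher and 5 lower in ferret astrocytes, against 13.1% and 30.1% of all tested genes, and 7 were not called. Their median log2 difference was -0.46 and their median absolute difference 1.31, beside -0.35 and 0.85 over all tested genes.

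The 3 higher genes were Nap1l5, Sfmbt2 and Zdbf2, all active on the paternal allele in the mouse. Nap1l5, a nucleosome assembly protein gene, had 21.6 and 23.5 FPKM in ferret astrocytes and 3.95 and 4.60 in mouse astrocytes (log2 difference 2.16, limma adjusted p = 4.67e-09). Sfmbt2, a Polycomb-related gene, had 3.26 and 3.52 FPKM in ferret astrocytes and 0.252 and 0.273 in mouse astrocytes (log2 difference 1.80). Zdbf2, a zinc finger gene, had 2.62 and 2.22 FPKM in ferret astrocytes and 0.122 and 0.097 in mouse astrocytes (log2 difference 1.62). Sfmbt2 and Zdbf2 passed the filter on low values through the ferret alone, so the filter favoured a difference for them.

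The 5 lower genes were Igf2, Gatm, Commd1, Slc22a18 and Atp10a. Igf2, the fetal growth factor that is expressed from the paternal allele, had 0.162 and 0.088 FPKM in ferret astrocytes and 18.9 and 21.9 in mouse astrocytes (log2 difference -4.25, SE 0.089, limma adjusted p = 1.08e-10). Igf2, Gatm and Slc22a18 passed the filter through the mouse alone. The low ferret level of Igf2 went with low levels of fibroblast markers in the same libraries, whose part in the difference was not tested. Gatm, an enzyme of creatine synthesis, had 0.092 and 0.072 FPKM in ferret astrocytes and 15.5 and 15.6 in mouse astrocytes (log2 difference -3.94, adjusted p = 5.87e-11). Commd1, a gene of copper and endosomal transport, had 11.5 and 12.2 FPKM in ferret astrocytes and 60.4 and 61.4 in mouse astrocytes (log2 difference -2.27). Slc22a18, an organic cation transporter gene, had 0.430 FPKM in the ferret and 2.90 in the mouse (log2 difference -1.45). Igf2r, the receptor that takes up and degrades Igf2, averaged 15.2 FPKM in the ferret, beside 10.6 in the mouse, and was not called, at a log2 difference of 0.49.

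**Figure D3:**
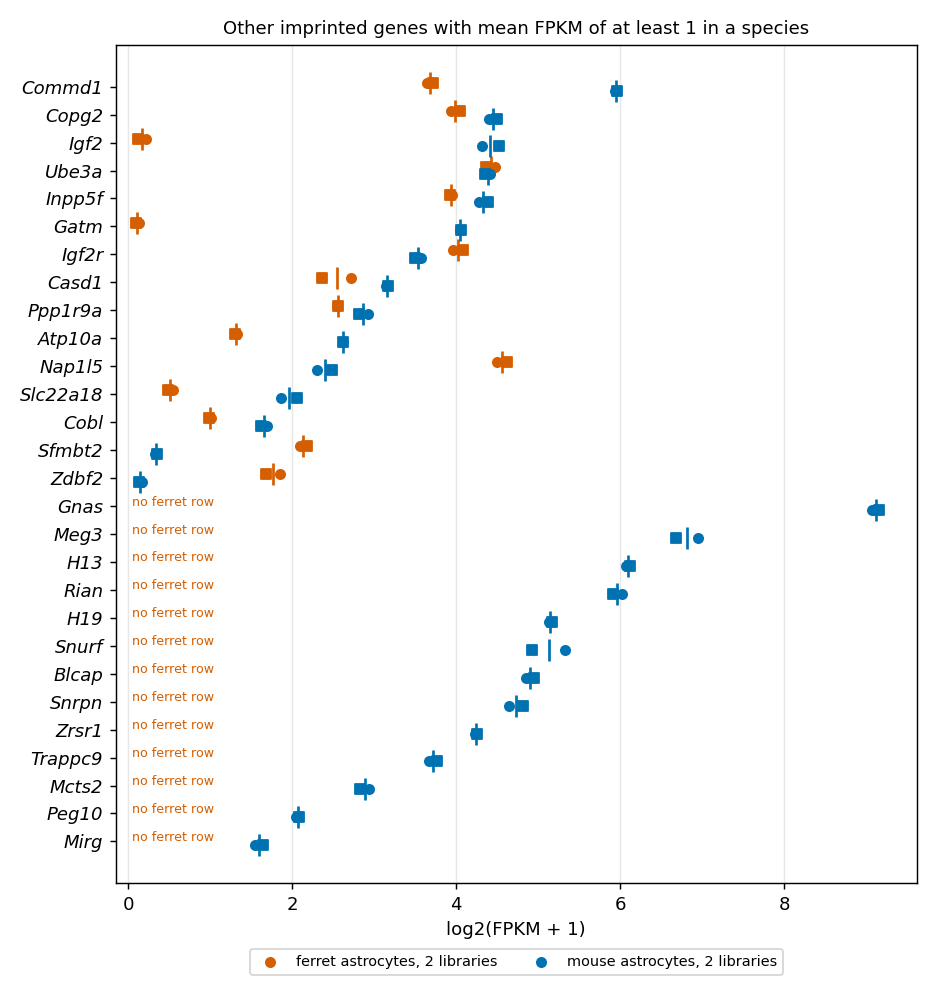
Expression of the listed imprinted genes outside the set of 10 that had a mean of at least 1 FPKM in a species, as log2(FPKM + 1), with ferret libraries in orange and mouse libraries in blue (circle replicate 1, square replicate 2, vertical bar the mean). The 15 genes with both values come first, and the 13 below them have mouse values alone. Igf2 and Gatm lie near 0 in the ferret, and Nap1l5, Sfmbt2 and Zdbf2 lie higher in the ferret than in the mouse.

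The ferret had no value for 20 of the 45 listed genes, among them the noncoding RNAs Meg3, Rian and Mirg. The 16853 ferret values carried 14584 different names, without regard to case, and 0 values were named by an Ensembl gene ID. What the repeated names stand for was not examined. A gene that lacked its symbol in the ferret annotation could not be matched. RefSeq's annotation of another ferret assembly names 9 of the 20 genes, including Peg10, Snrpn, Snurf, Dio3 and Rtl1. For 13 of the 20 the mouse mean was at least 1 FPKM. The comparison therefore leaves out these noncoding RNAs of the Dlk1 domain.

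Of 31 genes listed as partners or relatives of the 10 imprinted genes, 29 had values in both species and 25 were tested. Of these, 3 were called higher, 7 lower and 15 not called, beside 13.1% higher and 30.1% lower among all tested genes. The median log2 difference was -0.04 and the median absolute difference 0.60, against -0.35 and 0.85 over all tested genes.

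**Figure D4:**
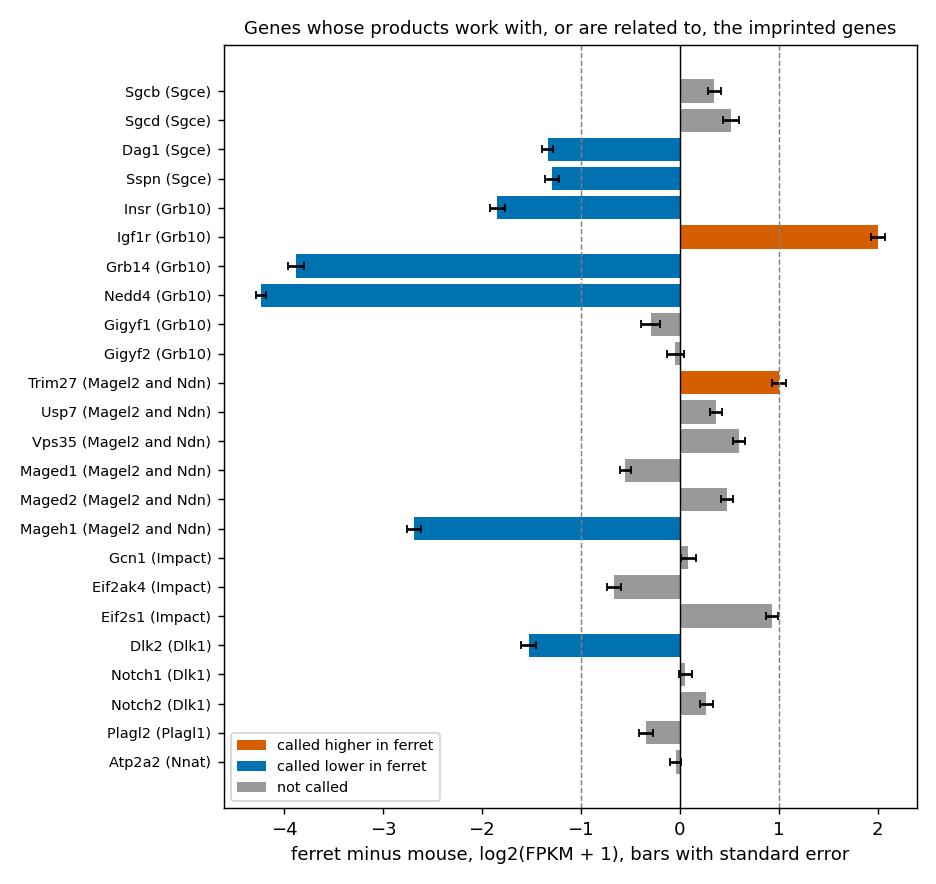
Log2 difference between ferret and mouse astrocytes, on the log2(FPKM + 1) scale with standard errors, for the partner genes described here that were tested, each with the imprinted gene it belongs to in parentheses. Orange bars are genes called higher and blue bars genes called lower in the ferret, grey bars are not called, and dashed lines mark the limit of 1. Nedd4 and Grb14 are the lowest of those drawn, and Igf1r is the highest.

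The adjusted p-values measure the spread between these 4 libraries, which may be technical. For a single gene, 2 values against 2 allow no two-sided p below 0.333 in an exact permutation. The lower genes Grb10, Dlk1, Plagl1 and Impact were measured in mouse libraries that also held the larger summed FPKM of fibroblast and microglial markers given above. The higher genes were measured in ferret libraries with the larger sum of oligodendrocyte lineage markers, of which Sox10 and Mbp were among those called higher, and with the 3 neuronal markers called higher. The part of these cells in the differences of the imprinted genes was not tested.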

How the data were processed

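RNA of ferret and mouse astrocytes was sequenced in 2 libraries per species. The authors aligned the reads with STAR 2.7.0f and deposited FPKM per gene from Cufflinks 2.2.1, with the Ensembl genomes MusPutFur1.0 and GRCm38. The deposited FPKM values hold no counts, and read depth was not analysed here. The authors also published read counts and gene lengths in a supplement, which were not used here. Steps between low values gave only the depth ratio of replicate 1 to replicate 2, 1.17 in the ferret and 0.83 in the mouse. Low values carry no confidence interval.

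Symbols were matched in upper case (13373 shared), and the highest value was kept for a symbol with several. limma 3.58.1 (R 4.3.3, with trend) was run across all genes on log2(FPKM + 1) where the mean was at least 1 FPKM in a species. A fold of a low gene is understated on this scale. The fit was tested on simulated data. Coordinates are those of GENCODE M21 on GRCm38. No genome or protein sequences were used.

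The 10 genes, the gene lists and the alternatives were chosen with earlier results of these data known. Named were all 10 genes, the genes of their domains, other listed imprinted genes that were called, partner genes with values, and cell type marker sums. Some listed partner and marker genes, which enter the counts, are not reported here by name. Alternatives were a pseudocount of 0.1, no filter, 2 other scalings, limma without trend, a replicate block, summed values of a symbol, and each library left out.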

Additional observations from a re-analysis of the deposited data

How the results depend on the processing

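Over 11 alternatives, all 9 imprinted genes with values in both species kept the sign of their difference, and 7 of them kept their call in every one. Ndn gained a call (log2 difference 1.07 in both cases) and Impact lost it (-0.95 and -0.96) after rescaling to the mean library sum and after quantile normalization. With the replicate block, 4 genes were higher and 4 lower, as without it, and no call among these genes changed. Replicate numbers come from the labels alone, with 2 pairs of libraries from different species, and the deviations of same-numbered libraries correlated at 0.01 across genes, so the block is no pairing by animal. When each library was left out in turn, the counts stayed at 4 higher and 4 lower, with the remaining library of a species assumed to vary like the other species. The count of other imprinted genes called lower ranged from 4 to 6 over all alternatives, and that called higher was 3 in each. Partner genes called higher ranged from 2 to 4 and called lower from 5 to 7. Without a filter on low values the adjusted p-values of the 9 genes reached 0.00146, at unchanged calls. Low levels, such as those of Dlk1 and of mouse Magel2, have a precision set by read depth, and the depth behind them was not analysed here.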
